A study of Mus musculus with 8 samples.

Results

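The genes followed here are 37 known genes of migratory, CCR7-positive mature dendritic cells (DC), taken by symbol from the 55487 genes of the count table. They were listed by name as known genes of this state, but with earlier results of these data known. Of them, 36 were among the 15411 genes with enough counts to test. The exception was Il4i1. In DC that had engulfed ferroptotic cells 17 of the 36 tested members fell, 0 rose and 19 did not pass the test. The largest falls were in Fscn1 and Cacnb3, at 11.6 and 10.8 times lower, and Ccr7 itself was 8.53 times lower (n = 4 libraries per group). The study already reports lower Ccr7 in this contrast, so Ccr7 is not independent evidence of direction.

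DC that take up antigen in tissues mature, change their cytoskeleton and surface receptors, and move along gradients of the chemokines CCL19 and CCL21 into lymphatic vessels and lymph nodes, where they meet T cells. The receptor for both chemokines is CCR7, and the migratory state carries further known genes: the actin-bundling protein fascin (Fscn1), chemokines that draw T cells (Ccl17, Ccl22), TNF receptor family members, survival factors and co-stimulatory surface proteins. NF-kB transcription factors are known to drive many of these genes, and a similar set marks mature DC in lymph nodes and tumors.

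All libraries came from bone marrow-derived DC (BMDC) grown for 10 days with GM-CSF from mice of WT genotype, whose strain is C57/bl6 in the labels and C57BL/6J, from females, in the study's methods. The 4 BMDC libraries were from cells with no treatment. The 4 BMDC-fer libraries were from cells co-cultured with ferroptotic Jurkat cells, a human T-cell leukemia line killed with the GPX4 inhibitor ML162, and then sorted for fluorescent cargo. Co-culture and uptake therefore cannot be told apart, since the BMDC controls had neither. Whether the controls were also sorted is not given in the sources used here, so the sort cannot be told apart either. In bulk RNA, a smaller share of mature cells and less RNA per mature cell cannot be told apart either. Libraries held 39326672 to 50532209 counts. Values are CPM, counts scaled to the TMM-normalized library size, with the SD over 4 libraries, and 3 counts, taken as the floor, were 0.0607 to 0.0785 CPM, which covers counting error only. Groups were compared by the quasi-likelihood test of edgeR, adjusted by Benjamini-Hochberg over all 15411 genes. This gave every adjusted p below unless DESeq2 is named. A call required an adjusted p no higher than 0.05 and a log2 fold change of at least 0.58 in either direction, where negative values are lower in BMDC-fer.

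Replicates 1 and 2 lay apart from replicates 3 and 4 in both groups. Of the variance of log2 CPM, the first principal component held 39.9% and the second 38.4%. The first also set the groups apart, with scores of 7.57 to 68.4 in BMDC and -61.1 to -3.78 in BMDC-fer. On the second, BMDC replicates 3 and 4 (-71.0 and -73.8) lay apart from all other libraries (6.97 to 39.1). Labels give no batch for the split into replicates 1 and 2 and replicates 3 and 4. Same-numbered BMDC and BMDC-fer libraries deviated together, but so did differently numbered libraries of the same set of replicates. Values are therefore also given from a fit blocked on replicate number and within each set of replicates. Pairing by number and pairing by set of replicates cannot be told apart here. GM-CSF cultures of bone marrow hold macrophages and granulocytes beside DC. Of 10 DC markers, Itgax was 1111 ± 294 CPM in BMDC against 1033 ± 247 CPM in BMDC-fer, and the summed level of the list was 8426 to 20661 CPM in BMDC and 3590 to 9804 CPM in BMDC-fer. In that list 2 markers fell, Flt3 (log2 fold change of -4.06) and Dpp4 (-3.10), and with the block 8 of 10 fell. All 10 DC markers had a negative log2 fold change, with a median of -1.57, and Itgax had the highest value (-0.10). Of all tested genes 5.91% were called lower and 3.47% higher, and with the block 8.13% and 4.85%. Of 10 macrophage markers 1 fell (Adgre1) and 0 rose, with sums of 2373 to 3641 CPM in BMDC and 2862 to 4725 CPM in BMDC-fer. Their log2 fold changes were positive for 8 and negative for 2, with a median of 0.46. Neutrophil markers summed to 46.2 to 265 CPM in BMDC and 14.1 to 44.6 CPM in BMDC-fer, and 5 of 10 fell, or 9 of 10 with the block. All 10 neutrophil markers had a negative log2 fold change, with a median of -3.40. Of 8 mast cell and basophil markers, 3 could be tested and 0 were called, with sums of 34.9 to 65.7 CPM in BMDC and 14.6 to 33.1 CPM in BMDC-fer. T-cell markers, included because the cargo is a T-cell line, summed to 29.7 to 42.9 CPM in BMDC and 29.0 to 53.6 CPM in BMDC-fer, and 1 of the 3 tested fell (Lck). Bcl11b and Themis, 2 of the 10 listed T-cell markers, had 0 counts in every library. The cargo is human and the counts are of mouse genes, so these values do not measure cargo RNA. Whether human reads were counted for mouse genes was not tested. The part of these marker shifts in the results that follow was not tested.

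The 17 members called lower were 47.2% of those tested, against 5.91% of all tested genes, and the 0 called higher stand against 3.47%. At an unadjusted p of 0.05 or less, 25 members were lower and 1 was higher, against 16.2% and 13.7% of all tested genes. DESeq2 called 20 members lower and 0 higher, against 8.4% and 4.89% of the 18167 genes to which it gave an adjusted p. Those it added to the members called lower by edgeR were Nr4a3, Serpinb9 and Net1. With the replicate block 22 members were called lower and 1 higher, against 8.13% and 4.85% of all tested genes. The log2 fold change was negative for 33 of 36 members (91.7%, against 49.9% of all tested genes), and its median was -1.06, against 0.00069 over all tested genes. For 19 members all 4 BMDC-fer libraries lay below all 4 BMDC libraries, a pattern shown by 11.6% of all tested genes. For 0 members all BMDC-fer libraries lay above all BMDC libraries, against 11.3% of all tested genes. The summed level of the 37 members was 3488 to 4127 CPM in BMDC and 1676 to 2964 CPM in BMDC-fer. Among the 17, 6 fell by more than 3 on the log2 scale, 9 by between 1 and 3, and 2 by less than 1.

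**Figure D1:**
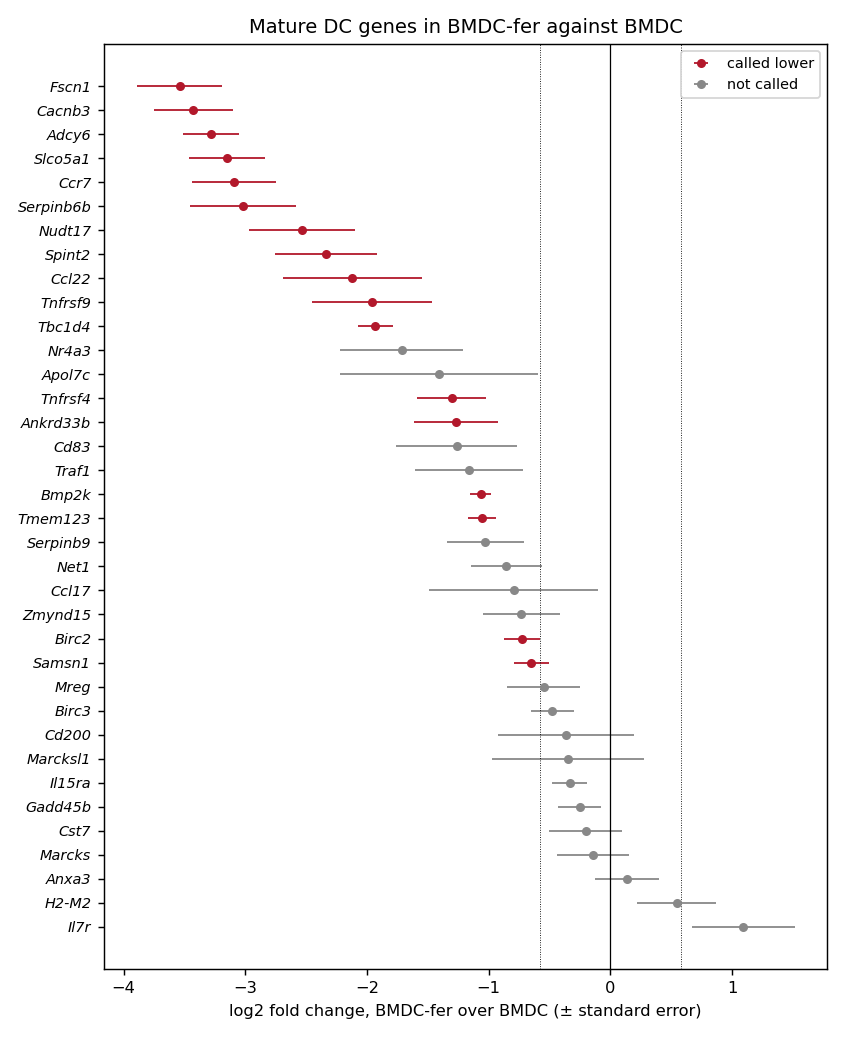
The x axis is the log2 fold change of BMDC-fer over BMDC with its standard error for each of the 36 tested members (y axis, ordered by fold change); red points are the 17 called lower and grey points the 19 not called, and dotted lines mark a log2 fold change of 0.58 in either direction. Values run from -3.54 for Fscn1 to 1.09 for Il7r.

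Of the 6 migration and cytoskeleton genes 3 fell and 0 rose, with a median log2 fold change of -0.75. Ccr7, the chemokine receptor that guides DC to lymph nodes (chr11:99144196-99155077, GRCm38), was at 98.8, 110.5, 155 and 167 CPM in BMDC replicates 1 to 4 and at 26.5, 14.8, 11.0 and 9.89 CPM in BMDC-fer replicates 1 to 4. Every BMDC-fer library was far below every BMDC library, BMDC-fer replicate 1 was the highest of its group, and replicates 3 and 4 had both the highest BMDC and the lowest BMDC-fer values. The log2 fold change of -3.09 (SE 0.34, adjusted p = 0.00268) made it the fifth lowest member. Fscn1, which bundles actin in the long projections of mature DC, was at 133, 128, 112 and 118 CPM in BMDC and 19.4, 8.79, 7.19 and 6.62 CPM in BMDC-fer, with a log2 fold change of -3.54 (SE 0.35, adjusted p = 0.00207). BMDC were close together and BMDC-fer replicate 1 stood above the other 3. Samsn1, an adaptor protein of immune cells, fell less, from 72.5 ± 8.31 to 46.2 ± 7.52 CPM, a log2 fold change of -0.65 (SE 0.14, adjusted p = 0.0242). For 16.6% of the 50-base stretches of Samsn1's longest transcript, the same sequence occurs in transcripts of other genes, so part of its counts is uncertain. It was not called without BMDC replicate 3 or 4 or BMDC-fer replicate 1, 3 or 4, where the adjusted p was 0.0511 to 0.075. The other 3 members of the group did not pass the test. Net1, an exchange factor for the GTPase RhoA, was 49.9 ± 22.0 CPM in BMDC against 27.6 ± 2.17 CPM in BMDC-fer, with a log2 fold change of -0.86 (SE 0.29, adjusted p = 0.0887). DESeq2 called Net1 lower (DESeq2 adjusted p = 0.0418). Other genes share 10.5% of the 50-base stretches of Net1, so part of its counts is uncertain. Marcksl1, which binds membranes and actin, was at 107, 81.8, 68.0 and 65.2 CPM in BMDC and 124, 94.8, 15.7 and 18.5 CPM in BMDC-fer: replicates 1 and 2 of BMDC-fer were above their BMDC counterparts and replicates 3 and 4 were several times below, with a log2 fold change of -0.35 (SE 0.62, adjusted p = 0.736). Its relative Marcks was at 335, 285, 163 and 149.8 CPM in BMDC and 246, 270.0, 149.7 and 179 CPM in BMDC-fer, where the groups overlapped (log2 fold change of -0.14, SE 0.30, adjusted p = 0.776).

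Both chemokine ligands are read by CCR4 on T cells, and their genes are neighbours on chromosome 8, 58.8 kb apart. Ccl22 was at 527, 499, 565 and 591 CPM in BMDC and 282, 131, 43.7 and 43.8 CPM in BMDC-fer. The groups did not overlap, and BMDC-fer varied widely: replicate 1 was the highest and replicates 3 and 4 the lowest. Its log2 fold change of -2.12 (SE 0.57, adjusted p = 0.0454) was just inside the threshold. Leaving out any single library except BMDC-fer replicate 1 took the adjusted p to between 0.0661 and 0.104, and with the block it was 0.0308. Ccl17 was at 1183, 706, 409 and 348 CPM in BMDC and 892, 405, 129.7 and 99.2 CPM in BMDC-fer. Both groups spanned a wide range and overlapped, with replicate 1 highest in each, and the log2 fold change was -0.79 (SE 0.69, adjusted p = 0.472). In each same-numbered pair BMDC-fer was lower, by log2 ratios of -0.41, -0.80, -1.66 and -1.81, and with the block it was called (adjusted p = 0.0344).

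Surface proteins and cytokine receptors showed the weakest group median, -0.36, with 2 of 7 members lower and 0 higher. Spint2, a membrane-anchored inhibitor of serine proteases, was at 66.3, 41.0, 38.6 and 41.3 CPM in BMDC and 17.7, 8.05, 6.92 and 4.24 CPM in BMDC-fer (log2 fold change of -2.34, SE 0.42, adjusted p = 0.0121). Replicate 1 was the highest library in both groups, and the groups did not overlap. Tmem123, a cell-surface mucin-like protein also known as porimin, fell from 391 ± 45.7 to 188 ± 12.5 CPM (log2 fold change of -1.05, SE 0.12, adjusted p = 0.00268). Its log2 ratios in the 4 same-numbered pairs were nearly equal, -0.94, -1.02, -1.07 and -1.16. Cd83, a surface marker of DC maturation, was at 64.5, 64.0, 52.1 and 54.7 CPM in BMDC and 41.4, 37.6, 7.74 and 11.1 CPM in BMDC-fer. No BMDC-fer library reached the lowest BMDC library, but replicates 1 and 2 were nearer to it and replicates 3 and 4 far below. The log2 fold change of -1.26 (SE 0.50, adjusted p = 0.128) did not pass, and with the block Cd83 was called (adjusted p = 0.0472). Cd200, a ligand that restrains myeloid cells, was 10.5 ± 6.89 CPM in BMDC against 8.14 ± 4.36 CPM in BMDC-fer with a log2 fold change of -0.36 (SE 0.56, adjusted p = 0.694), and Il15ra, which presents IL-15 to lymphocytes, had a log2 fold change of -0.34 (SE 0.15, adjusted p = 0.163). Il15ra was lower in every BMDC-fer library than in every BMDC library, by a small amount. Il7r, the receptor chain shared by IL-7 and TSLP, was the highest member, at 71.8, 67.2, 157 and 149 CPM in BMDC and 166, 115, 347 and 323 CPM in BMDC-fer. BMDC-fer was above BMDC in every same-numbered pair, yet the groups overlapped because replicates 3 and 4 of BMDC were above BMDC-fer replicate 2. Its log2 fold change of 1.09 (SE 0.42, adjusted p = 0.121) did not pass, and with the block it was the single member called higher (adjusted p = 0.00543). H2-M2, a nonclassical MHC class I gene, was at 28.2, 20.2, 50.3 and 48.0 CPM in BMDC and 66.3, 32.6, 53.5 and 61.9 CPM in BMDC-fer, higher in each pair but overlapping between the groups (log2 fold change of 0.55, SE 0.32, adjusted p = 0.287).

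**Figure D2:**
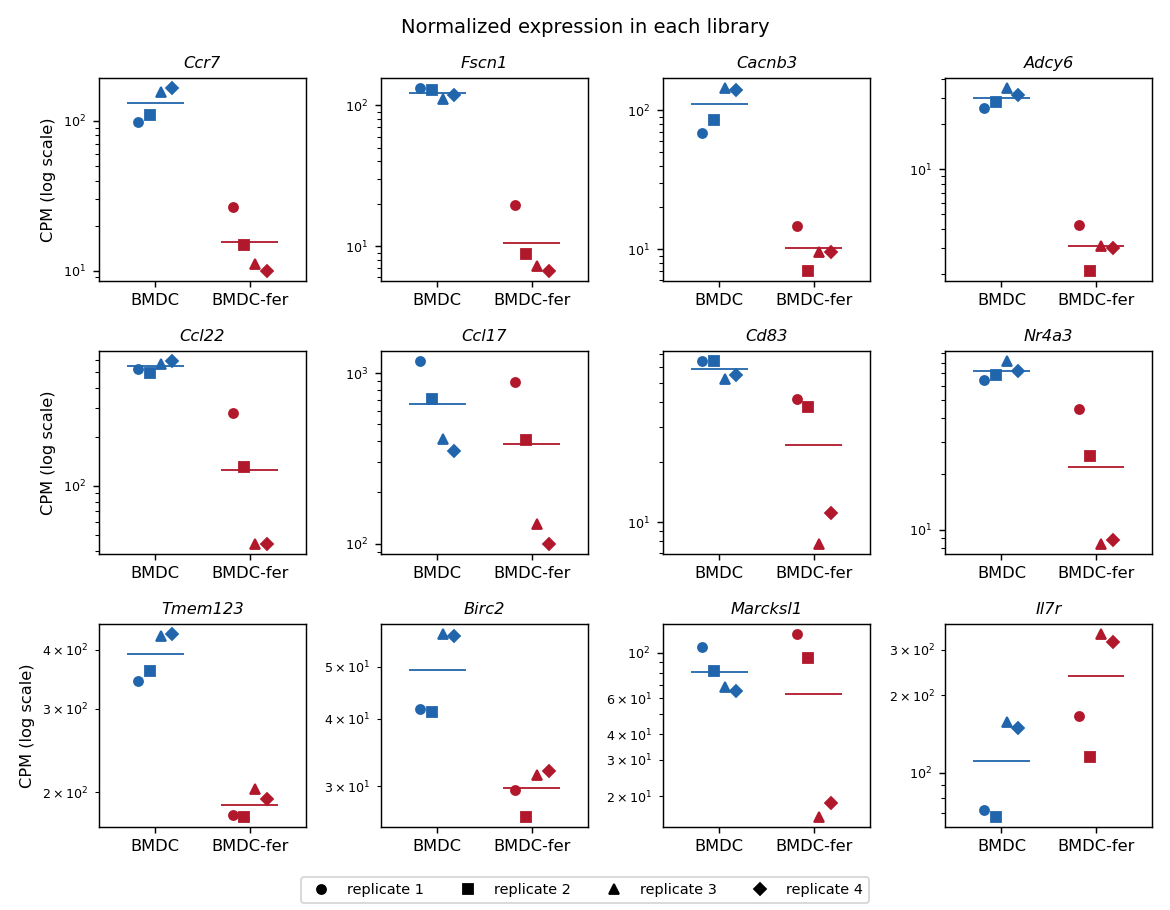
Each panel shows 1 gene: the y axis is normalized CPM on a log scale, each symbol is 1 library of BMDC (blue) or BMDC-fer (red) with a shape for each replicate number, and the line is the mean of the 4 libraries. Ccr7, Fscn1, Cacnb3, Adcy6, Ccl22, Cd83, Nr4a3, Tmem123 and Birc2 have every BMDC-fer library below every BMDC library, while Ccl17, Marcksl1 and Il7r overlap.

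Of the 5 TNF receptor signalling genes 3 were called lower and 0 higher, and all 5 had a negative log2 fold change. Tnfrsf9 (4-1BB), a co-stimulatory receptor, was at 54.5, 45.0, 132 and 163 CPM in BMDC and 27.8, 13.8, 41.8 and 18.1 CPM in BMDC-fer (log2 fold change of -1.96, SE 0.49, adjusted p = 0.0371). BMDC replicates 3 and 4 were well above replicates 1 and 2, and the groups did not overlap although BMDC-fer replicate 3 was close to BMDC replicate 2. Tnfrsf4 (OX40), another co-stimulatory receptor, was low in both groups, 4.90 ± 0.660 CPM in BMDC against 1.98 ± 0.728 CPM in BMDC-fer, with a log2 fold change of -1.30 (SE 0.28, adjusted p = 0.0235). Birc2 (cIAP1), a ubiquitin ligase of TNF receptor complexes, was 49.3 ± 9.10 CPM in BMDC against 29.8 ± 2.59 CPM in BMDC-fer (log2 fold change of -0.72, SE 0.15, adjusted p = 0.0191). Its neighbour and relative Birc3 (cIAP2), 11.6 kb away on chromosome 9, was at 94.7, 84.4, 71.0 and 71.7 CPM in BMDC and 75.9, 60.2, 46.6 and 48.5 CPM in BMDC-fer. Birc3 was lower in every pair, the groups overlapped through BMDC-fer replicate 1, and its log2 fold change of -0.48 (SE 0.18, adjusted p = 0.110) did not pass. Traf1, an adaptor of these receptors, was 40.3 ± 13.2 CPM in BMDC against 18.0 ± 12.3 CPM in BMDC-fer, with a log2 fold change of -1.16 (SE 0.45, adjusted p = 0.121) and, with the block, an adjusted p of 0.0109, which passed. Calls in this group depended on single libraries. Tnfrsf9 was not called without BMDC replicate 3 or 4 or BMDC-fer replicate 1, 2 or 4, with adjusted p values of 0.0776 to 0.106. Tnfrsf4 was not called without BMDC replicate 3 or 4 or BMDC-fer replicate 2 or 4 (0.0517 to 0.0755), and Birc2 without BMDC-fer replicate 2 or 4 (0.0513 to 0.0527).

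Among protease inhibitors, Serpinb6b, an intracellular serpin, was at 16.6, 15.8, 16.7 and 18.9 CPM in BMDC and 4.17, 2.01, 1.03 and 1.13 CPM in BMDC-fer (log2 fold change of -3.02, SE 0.43, adjusted p = 0.00597). BMDC libraries were nearly level, and all BMDC-fer libraries were below them, with replicate 1 the highest. Serpinb9, which inhibits granzyme B and lies 24.2 kb from Serpinb6b on chromosome 13, was 23.1 ± 9.98 CPM in BMDC against 11.3 ± 2.77 CPM in BMDC-fer. It was lower in every pair, did not pass the test (log2 fold change of -1.03, SE 0.32, adjusted p = 0.0678), and was called with the block (adjusted p = 0.0186). Cst7, the cathepsin inhibitor cystatin F, was at 3.89, 2.46, 3.41 and 4.74 CPM in BMDC and 4.84, 2.37, 2.66 and 2.72 CPM in BMDC-fer, with overlapping groups and a log2 fold change of -0.20 (SE 0.30, adjusted p = 0.681).

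Enzymes, transporters and vesicle proteins had the lowest group median of those with more than 2 genes, -1.93, with 6 of 9 tested members lower and 0 higher. Cacnb3, the beta-3 subunit of voltage-gated calcium channels, was at 69.0, 85.1, 145 and 141 CPM in BMDC and 14.7, 6.95, 9.58 and 9.61 CPM in BMDC-fer (log2 fold change of -3.43, SE 0.32, adjusted p = 0.00207). Adcy6, an adenylate cyclase that makes cyclic AMP, lies 20.8 kb from Cacnb3 on chromosome 15, on the opposite strand, and was at 25.6, 28.3, 35.2 and 31.6 CPM in BMDC and 4.23, 2.08, 3.09 and 2.96 CPM in BMDC-fer (log2 fold change of -3.29, SE 0.23, adjusted p = 0.00159). In both genes the groups were well separated, BMDC-fer replicate 1 was the highest of its group, and BMDC-fer replicate 2 the lowest. The annotation has 8.92% of the exon bases of Adcy6 overlapped by Gm29331 on the opposite strand. Slco5a1, an organic anion transporter family member, was scarce, at 3.04, 4.06, 5.04 and 2.99 CPM in BMDC and 0.526, 0.269, 0.527 and 0.366 CPM in BMDC-fer, still above the floor in every library. BMDC-fer libraries were all below BMDC libraries (log2 fold change of -3.15, SE 0.31, adjusted p = 0.00207). Nudt17, a nudix hydrolase, was 14.3 ± 0.588 CPM in BMDC against 2.47 ± 1.73 CPM in BMDC-fer (log2 fold change of -2.53, SE 0.44, adjusted p = 0.0107). Tbc1d4 (AS160), a Rab GTPase-activating protein, was 55.1 ± 8.52 CPM in BMDC against 14.4 ± 1.21 CPM in BMDC-fer (log2 fold change of -1.93, SE 0.14, adjusted p = 0.00163). Bmp2k, a kinase linked to clathrin-coated vesicles, was 112 ± 5.82 CPM in BMDC against 53.3 ± 1.76 CPM in BMDC-fer (log2 fold change of -1.07, SE 0.09, adjusted p = 0.00178), and 14% of its exon bases overlap Paqr3 on the opposite strand. Other genes share 26.3% of its 50-base stretches, so the counts of Bmp2k are uncertain. Tbc1d4 and Bmp2k changed by similar amounts in all pairs, with log2 ratios of -1.92, -1.58, -2.09 and -2.08 for Tbc1d4 and -1.02, -0.97, -1.14 and -1.12 for Bmp2k in pairs 1 to 4.

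The other members of that group were not called. Apol7c, an apolipoprotein L gene, was 39.0 ± 34.5 CPM in BMDC against 14.7 ± 12.8 CPM in BMDC-fer: replicates 1 and 2 were above replicates 3 and 4 in both groups, and by more in BMDC. Its log2 fold change was -1.41 (SE 0.81, adjusted p = 0.278) and, with the block, the adjusted p was 0.0252, which passed. Other Apol7 genes and pseudogenes share 26.2% of its 50-base stretches, so its counts are uncertain. Mreg (melanoregulin), involved in melanosome and lysosome traffic, was 53.2 ± 23.4 CPM in BMDC against 36.4 ± 5.58 CPM in BMDC-fer, with a log2 fold change of -0.55 (SE 0.30, adjusted p = 0.252). Anxa3, a membrane-binding annexin, was at 189, 231, 437 and 411 CPM in BMDC and 341, 386, 324 and 343 CPM in BMDC-fer. BMDC-fer was higher in pairs 1 and 2 and lower in pairs 3 and 4, and the log2 fold change was 0.14 (SE 0.26, adjusted p = 0.756). Il4i1, a secreted amino acid oxidase, had 4, 2, 2 and 4 counts in BMDC and 2, 0, 2 and 2 counts in BMDC-fer. These are at or near the floor, no fold is given, and a difference was not detectable at counts this low. The annotation places 86.3% of Il4i1's exon bases under Nup62, Atf5 or Tbc1d17, and how such reads were counted is not given in the sources used here.

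Of the 4 transcription and stress response genes 1 fell. Ankrd33b, an ankyrin repeat protein, was 24.8 ± 11.4 CPM in BMDC against 10.3 ± 2.81 CPM in BMDC-fer (log2 fold change of -1.27, SE 0.35, adjusted p = 0.0471), and BMDC-fer replicate 1 lay above BMDC replicate 2. With the block it was not called (adjusted p = 0.0877), nor without BMDC replicate 3 or 4 or any 1 of the BMDC-fer libraries (adjusted p of 0.0564 to 0.127). Nr4a3, an orphan nuclear receptor that is induced early by stimuli and has been linked to DC migration, was at 64.6, 68.3, 82.0 and 72.3 CPM in BMDC and 45.1, 25.2, 8.36 and 8.77 CPM in BMDC-fer. The groups did not overlap, and BMDC-fer replicates 1 and 2 were above replicates 3 and 4. Its log2 fold change of -1.72 (SE 0.51, adjusted p = 0.0604) did not pass, but it was called with the block (adjusted p = 0.0440) and without BMDC-fer replicate 1 (0.0196). Zmynd15, a zinc-finger repressor, was 5.56 ± 2.32 CPM in BMDC against 3.35 ± 0.644 CPM in BMDC-fer (log2 fold change of -0.73, SE 0.32, adjusted p = 0.163), and 12.5% of its exon bases overlap Cxcl16 on the opposite strand. Gadd45b, a stress-response gene, was at 38.2, 32.7, 44.2 and 39.2 CPM in BMDC and 43.2, 29.5, 25.3 and 31.5 CPM in BMDC-fer, overlapping, with a log2 fold change of -0.25 (SE 0.18, adjusted p = 0.362).

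Read per length, as normalized CPM for each kilobase of exon (RPKM), the order of the members also differed between the groups. Ccl17 was highest in both, at 1287 ± 741 RPKM in BMDC and 742 ± 714 RPKM in BMDC-fer. Ccr7 was rank 5 of 37 in BMDC at 67.1 ± 16.8 RPKM and rank 15 in BMDC-fer at 7.86 ± 3.84 RPKM. Fscn1 went from rank 8 at 40.7 ± 3.29 RPKM to rank 21 at 3.49 ± 2.00 RPKM, and Cacnb3 from rank 10 at 27.4 ± 9.65 RPKM to rank 24 at 2.55 ± 0.812 RPKM. Il7r moved the other way, from rank 12 at 23.9 ± 10.4 RPKM to rank 6 at 51.0 ± 24.5 RPKM. These ranks are a description, and the spread of neighbouring members often overlaps.

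In each same-numbered pair most members were lower in BMDC-fer, measured as the log2 ratio of CPM + 0.05. Of 36 members, 27 were lower in pair 1, 32 in pair 2 and 33 in each of pairs 3 and 4. The median log2 ratio was -0.67 in pair 1, -0.98 in pair 2, -1.42 in pair 3 and -1.41 in pair 4, so the falls in replicate 1 were the smallest. The lowest member was Fscn1 in pair 1 (-2.78), pair 2 (-3.86) and pair 4 (-4.14), and Serpinb6b in pair 3 (-3.96), where Fscn1 was at -3.95. The highest was H2-M2 in pair 1 (1.23) and Il7r in pairs 2, 3 and 4 (0.77, 1.14 and 1.12). For Ccr7 the ratios in pairs 1 to 4 were -1.90, -2.89, -3.81 and -4.07, and for Ccl22 they were -0.90, -1.93, -3.69 and -3.75. In all 4 pairs 25 members (69.4%) were lower, against 22.2% of all tested genes, and 2 (5.56%, Il7r and H2-M2) were higher, against 22% of all tested genes.

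**Figure D3:**
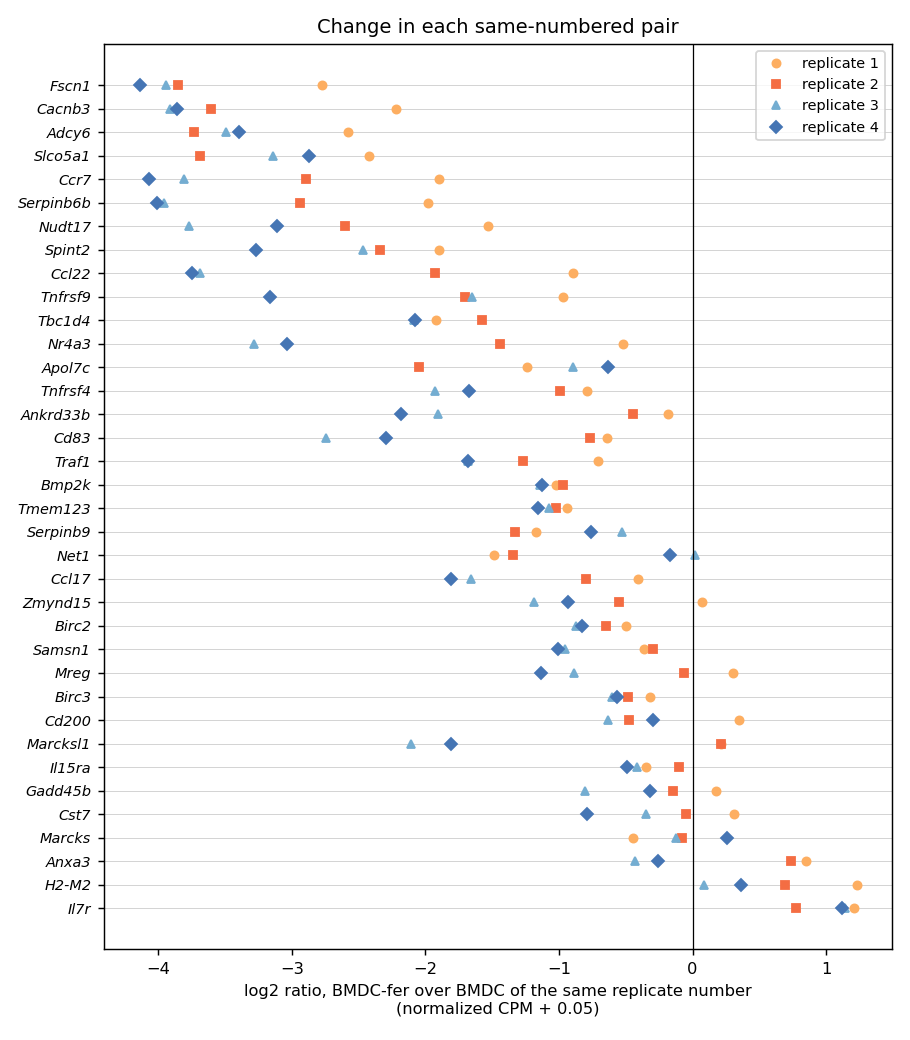
The x axis is the log2 ratio of BMDC-fer over BMDC (normalized CPM + 0.05) for each same-numbered pair of libraries, with 1 symbol for each replicate number, and the y axis lists the 36 tested members in order of fold change. From Fscn1 to Ankrd33b every symbol lies left of 0, replicate 1 is often nearest to 0, and only Il7r and H2-M2 have all 4 symbols to its right.

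Within replicates 1 and 2 alone, from a fit with the replicate set as a term, 20 members were called lower and 3 higher, against 12.9% and 9.36% of all tested genes. The 3 were Anxa3, H2-M2 and Il7r. Within replicates 3 and 4, 26 were called lower and 1 higher (Il7r), against 16.2% and 16.8%. The median log2 fold change was -0.90 in the first set and -1.41 in the second, and 18 members (50%) were called lower in both, against 5.92% of all tested genes. The size of the change differed between the replicate sets for 13 of the 36 members (36.1%) by a test of the interaction, against 37.8% of all tested genes, a share that is near the background. In 12 of the 13 the value was lower in replicates 3 and 4, as it was in 48.4% of the 5829 genes that passed this test. Ccr7 changed by -2.33 within replicates 1 and 2, against -3.94 within replicates 3 and 4 (interaction adjusted p = 0.00355), and Ccl22 by -1.31 within replicates 1 and 2, against -3.72 within replicates 3 and 4 (adjusted p = 0.00176). Cd83 changed by -0.70 within replicates 1 and 2, against -2.51 within replicates 3 and 4, and Nr4a3 by -0.92 within replicates 1 and 2, against -3.17 within replicates 3 and 4 (adjusted p = 0.000306 and 0.000896). Marcksl1 was at 0.21 within replicates 1 and 2, against -1.96 within replicates 3 and 4 (adjusted p = 0.000236). Net1 was the exception, with -1.42 within replicates 1 and 2, against -0.08 within replicates 3 and 4 (adjusted p = 0.000162). For Fscn1, Adcy6, Slco5a1, Tbc1d4, Bmp2k and Tmem123 the difference did not pass, with adjusted p values of 0.115 to 0.973.

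**Figure D4:**
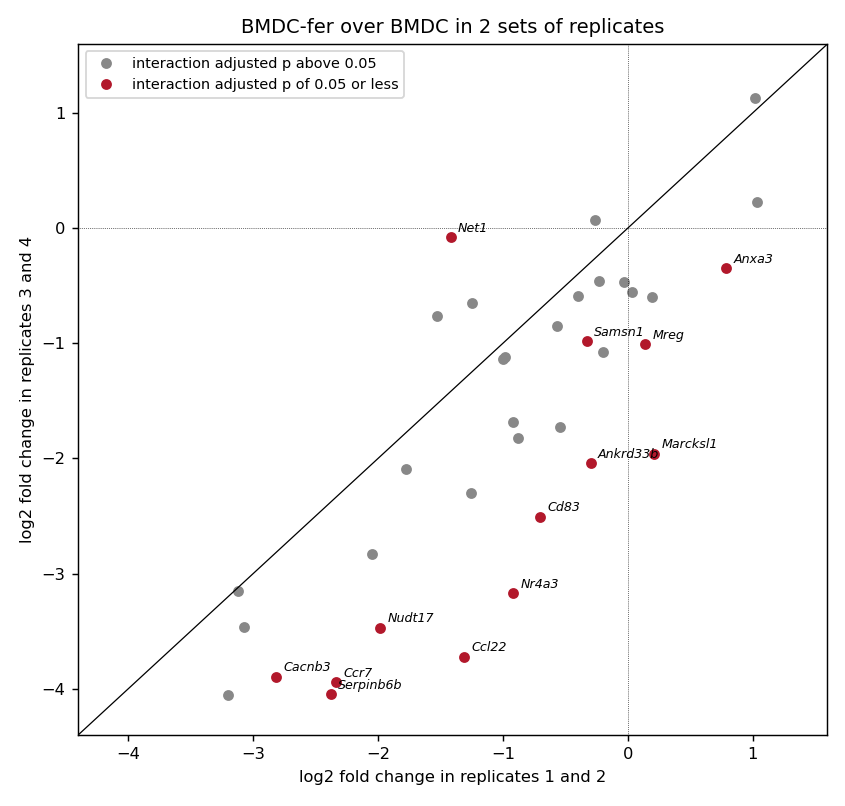
The x axis is the log2 fold change of BMDC-fer over BMDC in replicates 1 and 2 and the y axis that in replicates 3 and 4, with 1 point for each of the 36 tested members and the diagonal for equal change; the 13 named red points have an interaction adjusted p of 0.05 or less. Of these, 12 lie below the diagonal and Net1 lies above it.

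Further genes of the pathway were read from 4 lists written by hand. Over all tested genes 5.91% were called lower and 3.47% higher, and with the block 8.13% and 4.85%. The lists are short, so a single gene moves the share of a list by much. Of 12 NF-kB genes 2 fell and 0 rose, with a median log2 fold change of -0.35. The 2 were Rel (c-Rel), 186 ± 99.5 CPM in BMDC against 44.6 ± 13.1 CPM in BMDC-fer (log2 fold change of -2.06, SE 0.40, adjusted p = 0.0160), and Nfkb1, 182 ± 28.4 CPM in BMDC against 113 ± 27.2 CPM in BMDC-fer (log2 fold change of -0.69, SE 0.19, adjusted p = 0.0470). Relb was lower in every BMDC-fer library but did not pass (log2 fold change of -0.99, SE 0.32, adjusted p = 0.0792). By DESeq2, the method the study used, Relb did pass the same thresholds (log2 fold change of -0.98, DESeq2 adjusted p = 0.0311). Bcl3 had the highest value (log2 fold change of 0.44, SE 0.30, adjusted p = 0.350). Rel, Nfkb1 and Relb are ones that the study names for this contrast, so they are not independent evidence of direction. Of 15 genes of CCR7 signalling and cell motility 2 fell and 0 rose, with a median of -0.09. They were Pik3cg, the PI3-kinase gamma catalytic subunit (log2 fold change of -1.19, SE 0.22, adjusted p = 0.0138), and Dock8, a Cdc42 exchange factor (log2 fold change of -0.80, SE 0.14, adjusted p = 0.0104), while Itgb2 was highest (log2 fold change of 0.30, SE 0.28, adjusted p = 0.514). Of 12 co-stimulatory and regulatory genes 3 fell and 0 rose, with a median of -0.58: Aldh1a2, which makes retinoic acid (log2 fold change of -1.76), Cd86 (-1.47) and Cd80 (-1.08). With the block 5 of the 12 were lower, and Socs1, a feedback inhibitor of cytokine signalling, had the highest value (log2 fold change of 0.99, SE 0.31, adjusted p = 0.0696). Of 14 transcription factors 4 fell, namely Bhlhe40 (-1.51), Irf4 (-1.42), Etv3 (-0.94) and Stat3 (-0.59), 1 rose, Batf (0.94), and the median was -0.77. Nr4a2, a relative of Nr4a3, had the lowest value there, with overlapping groups, and did not pass (log2 fold change of -2.82, SE 0.82, adjusted p = 0.0576).

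Sequence before the start sites was available for 30 of the 37 members, as RefSeq windows on GRCm38.p6, of which the 250 bases upstream of the start were searched on both strands. Ccr7, Marcks, Cd83, Slco5a1, Adcy6, Anxa3 and Zmynd15 had no window. A kappaB consensus was found in 2 of the members' 37 windows (5.41%), 1 each of Spint2 and Tnfrsf9, while 5% of all 32851 windows held one. A further Tnfrsf9 window, at chr4:150919905-150920154, held 0 kappaB matches. Both windows of Tnfrsf9 lie inside its annotated span, chr4:150914562-150946102. The ETS-IRF composite element, GGAA followed after 2 bases by GAAA, was found for Birc2 and Samsn1 (2.3% of all windows), and the AP-1 site TGANTCA for Il15ra and Tnfrsf9 (6.75% of all windows). Matches of different motifs did not overlap. With counts this small the members are not set apart from other genes, and a match is a description of the letters only. Shown are the windows of Fscn1, the member with the lowest fold change, at chr5:142960105-142960354 on the plus strand, and of the 2 members with a kappaB match, Spint2 at chr7:29281978-29282227 on the minus strand and Tnfrsf9 at chr4:150927749-150927998 on the plus strand. Each runs 5′ to 3′ along the gene's strand up to the base before the start, and capitals mark the kappaB matches, which in Tnfrsf9 are 2 overlapping matches.
Fscn1: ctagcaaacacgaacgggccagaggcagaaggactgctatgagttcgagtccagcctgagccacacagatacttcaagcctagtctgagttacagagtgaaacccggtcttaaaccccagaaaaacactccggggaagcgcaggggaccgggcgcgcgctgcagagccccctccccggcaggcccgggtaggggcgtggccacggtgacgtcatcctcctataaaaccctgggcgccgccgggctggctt
Spint2: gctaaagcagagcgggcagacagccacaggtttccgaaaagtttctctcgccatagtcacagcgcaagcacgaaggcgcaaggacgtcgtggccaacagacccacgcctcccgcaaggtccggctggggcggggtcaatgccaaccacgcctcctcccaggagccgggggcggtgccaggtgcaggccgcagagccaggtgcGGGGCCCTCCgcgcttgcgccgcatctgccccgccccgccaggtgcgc
Tnfrsf9: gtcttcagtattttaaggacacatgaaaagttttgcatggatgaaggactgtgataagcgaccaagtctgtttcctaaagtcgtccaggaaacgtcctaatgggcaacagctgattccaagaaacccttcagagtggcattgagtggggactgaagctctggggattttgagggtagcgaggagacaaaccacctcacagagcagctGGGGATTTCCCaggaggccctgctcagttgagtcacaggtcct

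Position links some members. Within 200 kb of another member lay 11 of the 37, in 6 neighbouring pairs. Adcy6 and Cacnb3 fell by nearly the same amount, as given above, whereas Ccl22 and Ccl17, and Serpinb6b and Serpinb9, differed in log2 fold change by more than 1. Tmem123 (chr9:7764041-7794333, plus strand) lies 23.9 kb before Birc2, and Tmem123, Birc2 and Birc3 had log2 fold changes of -1.05, -0.72 and -0.48 in chromosome order. Anxa3 (0.14) and Bmp2k (-1.07) are 151.7 kb apart on chromosome 5, and Bmp2k alone was called. No test of position was made.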

How the data were processed

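RNA was sequenced from 4 BMDC and 4 BMDC-fer libraries. The submitters' processing notes name CASAVA, HISAT2, featureCounts, DESeq2 and mm10. The authors counted reads per mouse gene and deposited raw counts, which were used without change. Annotation, strand setting and the handling of multiply mapped reads are not given in the sources used here, so members that overlap or resemble other genes are uncertain. The labels do not say whether replicates were separate cultures; the study calls them independently collected samples. If they were not separate cultures, p-values measure only the spread between these samples. Symbols, positions and exon lengths came from GENCODE M21 (GRCm38), where 55141 of 55487 identifiers had a symbol and all 37 members matched. In R 4.3.3, edgeR 4.0.16 with TMM and filterByExpr (minimum 10 counts, 0.236 CPM) kept 15411 genes. P-values of its quasi-likelihood tests received Benjamini-Hochberg adjustment, and the SE is the absolute log2 fold change divided by the square root of F. Calls used the study's thresholds, an adjusted p of at most 0.05 with a log2 fold change of 0.58 or larger in size. Pair ratios used CPM + 0.05. Shared 50-base stretches were those of the longest annotated transcript of each member that occur, on either strand, in annotated transcripts of other genes. Replicate numbers came from the labels. Over genes, deviations of same-numbered libraries from their group means correlated with r of 0.445, 0.354, 0.313 and 0.342, and differently numbered libraries of the same set of replicates with r of 0.186 to 0.379. Every same-numbered r was above 0.1, and on that ground the number was used as a block, although these values do not separate pairing by number from pairing by set of replicates; genes are not independent replicates. All replicates differed by more than sampling noise, with a chi-square per gene of at least 8.97. Alternatives were the replicate block, DESeq2 1.42.0, other scalings and filters, adjusted p alone, each library left out and each set of replicates. Tests were tried on simulated counts first. The members, gene lists and tests, including the split into replicates 1 and 2 and replicates 3 and 4, were chosen with earlier results of these data known. Values in every library are given for Ccr7, the 6 lowest and 6 highest members, the untested member and the lowest and highest of each role group. Of a further list, a log2 fold change is given for the lowest and highest gene, those the study names and those called. Per-library values of Marcksl1 and Cd83 were added after their values were seen.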

Additional observations from a re-analysis of the deposited data

Results flagged for a closer look

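In 4 of 72 groups of 4 libraries, 1 library stood far from the other 3 (by Dixon's criterion, its gap to the closest library divided by the range), where chance gives about 1 in 20 groups, or 3.6. BMDC-fer replicate 1 was high for Fscn1 (0.831) and Cst7 (0.859), BMDC replicate 1 was high for Spint2 (0.903), and BMDC replicate 2 was low for Bmp2k (0.879). By edgeR's test of the interaction, 13 members changed by unequal amounts in the 2 sets of replicates, a share near that of all tested genes. The log2 fold change in replicates 3 and 4 minus that in replicates 1 and 2 was -2.41 for Ccl22, -2.25 for Nr4a3, -2.17 for Marcksl1, -1.81 for Cd83, -1.75 for Ankrd33b, -1.67 for Serpinb6b, -1.61 for Ccr7, -1.49 for Nudt17, -1.15 for Mreg, -1.14 for Anxa3, -1.08 for Cacnb3 and -0.652 for Samsn1, and 1.34 for Net1. For Marcksl1, Mreg and Anxa3 the sign also differed between the replicate sets.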

How the results depend on the processing

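Of the 17 called members, 11 stayed called when each library in turn was omitted, whereas 6 lost the call at least once: Ccl22, Tnfrsf9, Tnfrsf4, Ankrd33b, Birc2 and Samsn1. Samsn1 was not called without BMDC replicate 3 or 4 or BMDC-fer replicate 1, 3 or 4 (Benjamini-Hochberg adjusted p of 0.0511 to 0.075 in edgeR). Nr4a3 and Traf1 gained a call without BMDC-fer replicate 1. With 1 library left out, 11 to 16 members were called lower and 0 higher, the fewest without BMDC-fer replicate 4. Replicates 3 and 4 alone gave 26 lower and 1 higher, replicates 1 and 2 alone gave 3 higher and did not call Ankrd33b, Birc2 or Samsn1, and the replicate block gave 1 higher. The replicate block changed the calls of Nr4a3, Apol7c, Cd83, Traf1, Serpinb9, Ccl17, Il7r and Ankrd33b, and of no other member. Other scalings, filters and adjusted p alone gave 16 or 17 lower and 0 higher; upper quartile scaling lost Ankrd33b. Scaling by total counts moved the median of all tested genes to -0.09. The median of the members lay between -1.41 (replicates 3 and 4) and -0.90 (replicates 1 and 2) and kept its sign in each alternative. The interaction count was 13 or 14 under other scalings and a count minimum of 50. No called member changed sign in any alternative that was run. DESeq2 called 8 of the 14 transcription factors lower, against 8.4% of all genes with its adjusted p. Depth limits scarce members. Il4i1 had too few counts to be tested, and whether depth or the overlap with other genes lowered its counts was not tested. The causes of these dependences were not tested.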
